A study of Homo sapiens with 2 samples.

Results

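Expression was examined for 45 genes of glucose metabolism and of the response to low oxygen in Molm13 cells, chosen by name out of the 50868 genes of the deposited table. The genes were sorted by role into 27 genes of glycolysis and pyruvate metabolism, 6 genes of the pentose phosphate pathway, and 12 genes made up of HIF1A and targets of hypoxia-inducible factor (HIF). Molm13 is a human acute myeloid leukemia (AML) line that carries the KMT2A::MLLT3 fusion. The data hold 1 library of empty-vector cells (Vector) and 1 of cells labelled as over-expressing UNC5B (OE-UNC5B), a receptor for netrin-1. According to the methods, the lentiviral plasmid places FLAG-tagged UNC5B under a CMV promoter with mCherry and puromycin resistance, transduced cells were selected with puromycin, and both cultures were grown in RPMI 1640 with serum. The labels name no treatment with glucose, oxygen or drug in either group. The counts of UNC5B were 0 in each library and do not show the over-expression, so directions below rest on the name of the library labelled OE-UNC5B.

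Glycolysis converts glucose to pyruvate in the cytosol. Glucose enters through SLC2A transporters, is trapped by hexokinases, split into triose phosphates, and oxidised in the lower steps that return ATP. Pyruvate is then reduced to lactate and exported, or oxidised in mitochondria by pyruvate dehydrogenase, which PDK kinases inhibit. The pentose phosphate pathway branches off after hexokinase and yields NADPH and ribose 5-phosphate for nucleotides. HIF1A is degraded when oxygen lets prolyl hydroxylases such as EGLN1 mark it, and when stable it induces many glycolytic genes together with VEGFA, CA9, BNIP3, NDRG1 and others. Proliferating leukemia cells are known for a high use of glucose, and GAPDH, a glycolytic enzyme, is a common reference gene for RT-qPCR.

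Vector had 13715566 counted reads and the library labelled OE-UNC5B 15637137. Of the 45 genes, 42 had at least 10 reads over both libraries and were compared, among 15384 such genes in all. The other 3 were HK3 with 3 and 0 reads (Vector first, as in every pair of values given here), CA9 with 2 and 0 reads, and EGLN3 with 0 reads in both. A count of 0 allows up to 3 reads, which is 0.219 CPM (counts scaled to library size) at the depth of Vector and 0.192 CPM at that of the other library. Scaling was by TMM, and log2 fold changes are those of the library labelled OE-UNC5B over Vector with 0.5 reads added. Neither group has a second library, so no difference could be checked against replicates and no test of the conditions was made, and a gene is counted as higher or lower only by the size of its fold. The 95% intervals given with log2 fold changes come from the reads, cover counting error only and leave out variation between cultures. In bulk RNA, fewer cells with a transcript and less transcript per cell cannot be told apart.

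Most glycolytic genes had lower values than in Vector, the pentose phosphate genes lay close to 0 apart from 2 enzymes, and the HIF targets did not move together. Of the 42 genes compared, 10 were lower by at least 1.5-fold (23.8%), against 12.5% of all genes compared, and 4 were higher by at least 1.5-fold (9.52%), against 12.9% of all genes, where 25.4% passed that fold in either direction. The threshold of 2-fold was passed upward by 3 genes, DDIT4, VEGFA and RPE, against a background of 5.15%, and downward by 0 genes, against 4.79%. Among the glycolytic genes, 9 of 26 (34.6%) were lower and 1 was higher by at least 1.5-fold. Their median log2 fold change was -0.43, beside -0.01 for all genes, and 22 of the 26 (84.6%) had a value below 0, beside 50.6% of all genes. The pentose phosphate genes had a median of -0.14, with 1 higher and 1 lower of 6. The group of HIF1A and HIF targets, sorted apart from the glycolytic genes, had a median of -0.05, with 2 higher and 0 lower of 10. Many glycolytic genes are highly expressed, and among the 5932 genes with at least 1000 reads the background was 6.57% lower and 7.62% higher by 1.5-fold and 50.7% below 0. Of the 16 glycolytic genes with at least 1000 reads, 7 were lower by 1.5-fold, 0 were higher and 15 were below 0. At this depth 3 of 28 members were past 2-fold higher and 0 past 2-fold lower, against 1.9% and 1.2% of genes.

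**Figure D1:**
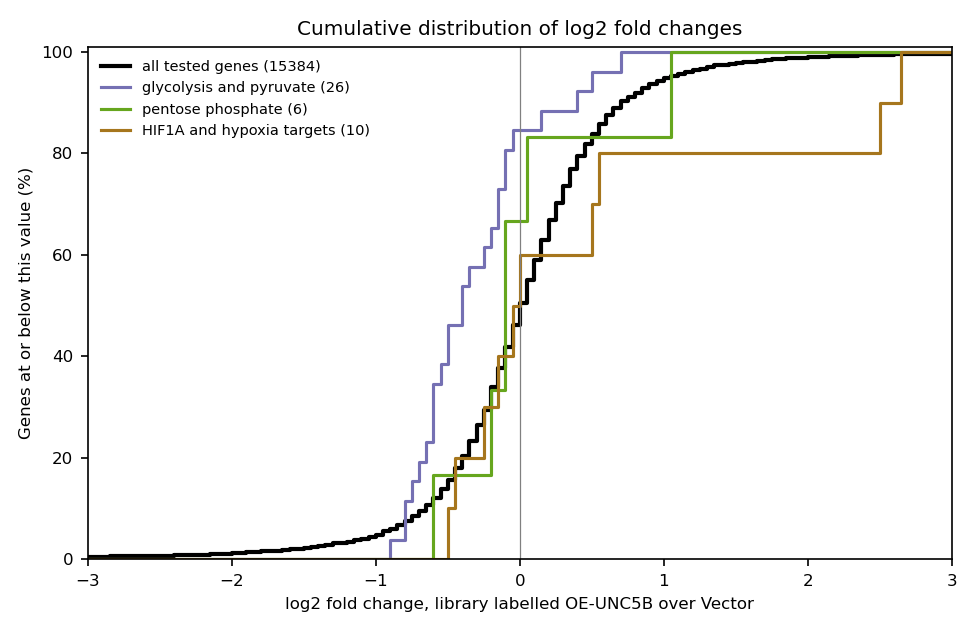
Cumulative share of genes (y axis, %) at or below each log2 fold change of the library labelled OE-UNC5B over Vector (x axis), for all 15384 genes compared and the 3 groups of members, read off in steps of 0.05. The glycolytic curve runs to the left of that of all genes, with 84.6% of its 26 genes below 0, while 2 of the 10 HIF genes lie beyond 2.

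At the entry of the pathway, the transporters and the hexokinases were divided. SLC2A1, the basal glucose transporter GLUT1, had 495 and 436 reads, a log2 fold change of -0.42 (interval -0.61 to -0.23). SLC2A3, the high-affinity transporter GLUT3, had 274 and 524 reads, a log2 fold change of 0.70 (0.49 to 0.92), and was the 1 glycolytic gene higher by at least 1.5-fold. The transporters therefore lay on opposite sides of 0, with intervals that do not overlap. SLC2A14, a close paralog of SLC2A3, and SLC2A3 pseudogenes held 53 and 68 reads together, and with these added the log2 fold change was 0.62. HK2, the inducible hexokinase, had 1645 and 2532 reads, a log2 fold change of 0.39. HK1, the hexokinase of most tissues, had 427 and 344 reads, a log2 fold change of -0.55. Thus HK2, already the more abundant hexokinase in Vector, was the higher one and HK1 the lower one.

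Of the 9 genes of upper glycolysis, 8 had values below 0 and 2 were lower by at least 1.5-fold. GPI, which turns glucose 6-phosphate into fructose 6-phosphate, had 8836 and 6275 reads, a log2 fold change of -0.73 (-0.78 to -0.68). TPI1, which interconverts the triose phosphates, had 8715 and 6489 reads, a log2 fold change of -0.66 (-0.71 to -0.62), and its pseudogenes held 1108 and 797 reads. Both enzymes stand at reversible steps. ALDOA, the main aldolase, had 9581 and 8271 reads, a log2 fold change of -0.45, and ALDOC, the brain form, had 190 and 158 reads and one of -0.50, with 207 and 123 reads in AC005726.1, which overlaps it. Of the phosphofructokinases, which catalyse the committed step, PFKP had 2077 and 1867 reads and a log2 fold change of -0.39, and PFKL had 3158 and 3570 reads and a log2 fold change of -0.06 (-0.13 to 0.01). The interval of PFKL includes 0, and PFKM, the muscle form, was near the detection limit with 21 and 27 reads. PFKFB4, a bifunctional enzyme that sets the activator fructose 2,6-bisphosphate, had 107 and 84 reads and was 1.499-fold lower, just short of the threshold, while ENO1 at 1.54-fold was the gene just past it. PFKFB3 had 293 and 307 reads, with an interval from -0.40 to 0.07 that includes 0.

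All 6 genes of lower glycolysis had values below 0 with intervals that exclude 0, and 4 of them were lower by at least 1.5-fold. ENO1 (ENSG00000074800), the enolase of most cells, had 41063 and 31342 reads, a log2 fold change of -0.63 (-0.65 to -0.60). PGAM1, the phosphoglycerate mutase one step before it, had 3798 and 2536 reads, a log2 fold change of -0.82 (-0.89 to -0.75). PGK1, which makes the first ATP of the pathway, had 8825 and 6647 reads, a log2 fold change of -0.65 (-0.69 to -0.60). These consecutive enzymes were lower by similar amounts, between 1.54-fold and 1.76-fold. ENO2, the neuronal enolase, was also lower, with 60 and 40 reads and a log2 fold change of -0.82 (-1.44 to -0.22). LRRC23, which overlaps ENO2 on the same strand, had 19 and 35 reads. The enzymes at either end of this stretch differed less: GAPDH had 50079 and 50908 reads and a log2 fold change of -0.21 (-0.23 to -0.19), and PKM, pyruvate kinase, had 8672 and 9296 reads and a log2 fold change of -0.14 (-0.18 to -0.09). GAPDH (ENSG00000111640, chromosome 12 from 6533927 to 6538374, plus strand, GRCh38) was 1.16-fold lower after TMM scaling. Its log2 fold change was -0.17 with library totals and -0.09 with a trend on GC content and transcript length subtracted, which also moved PKM to -0.06. GAPDH alone took 0.365% of the Vector reads (exact 95% interval 0.362 to 0.368) and 0.326% of those of the library labelled OE-UNC5B (0.323 to 0.328). Its 20 pseudogenes with reads held 684 and 631 reads, under 2% of those of GAPDH.

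**Figure D2:**
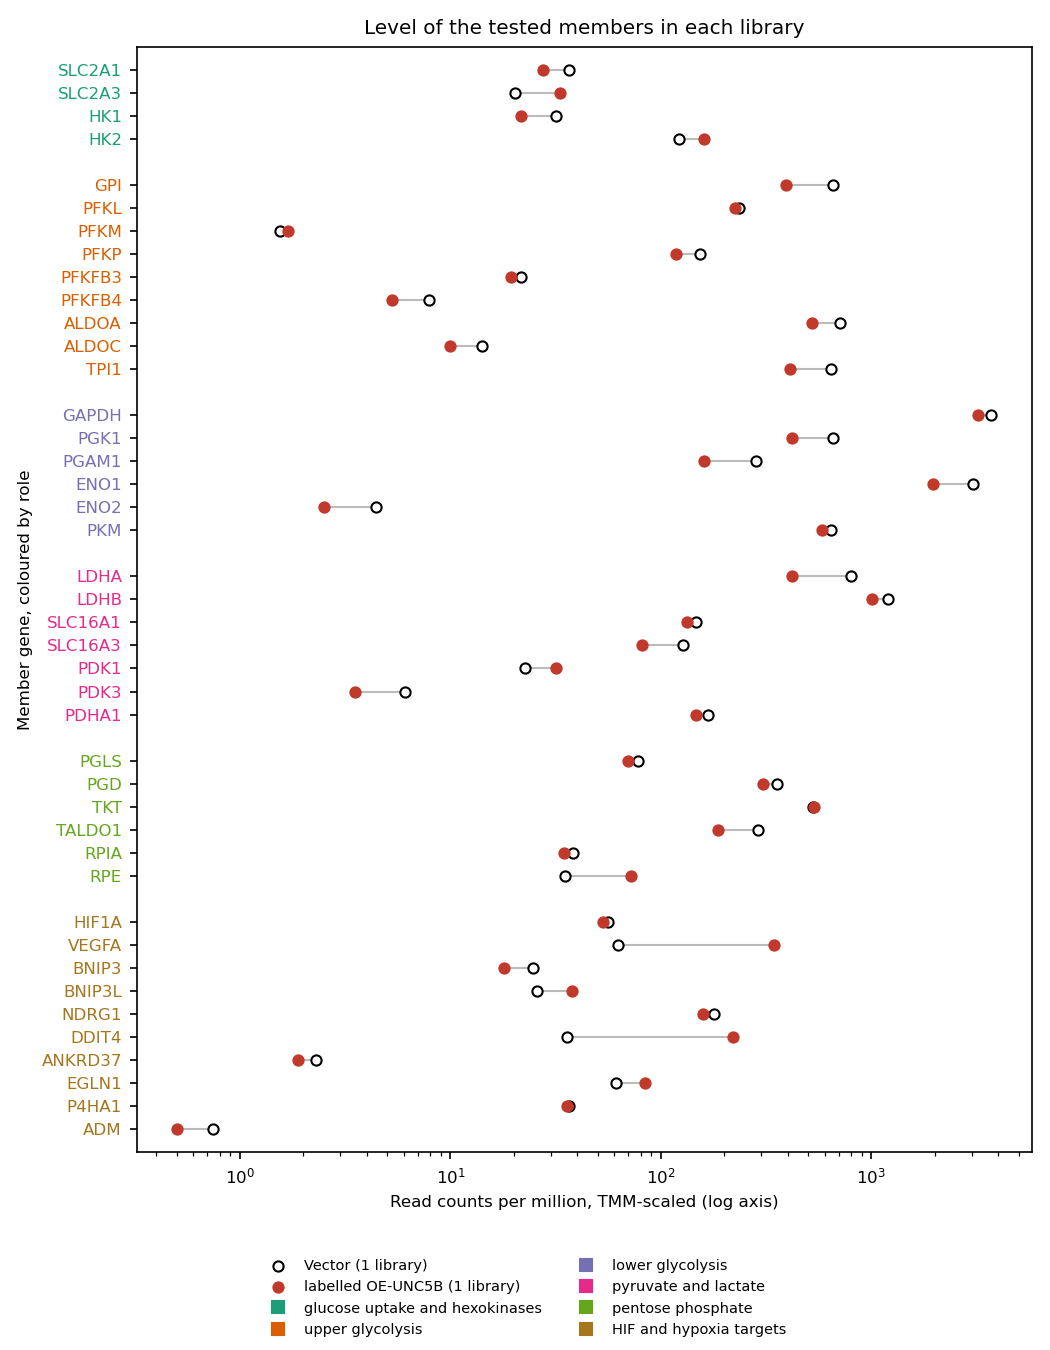
Level of the 42 compared members in each library, in TMM-scaled CPM (x axis, log scale), by gene (y axis, coloured by role). Open circles are Vector and filled circles the library labelled OE-UNC5B, 1 library each. VEGFA moved from 62.6 to 346.2 and DDIT4 from 35.6 to 220.6, while LDHA moved from 801.7 to 419.7.

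At the fate of pyruvate, LDHA had the lowest log2 fold change of the 42 genes. LDHA (ENSG00000134333, chromosome 11 from 18394388 to 18408425, plus strand) encodes the lactate dehydrogenase subunit linked to lactate production. It had 10817 and 6672 reads, 1.91-fold lower, a log2 fold change of -0.93 (-0.98 to -0.89). LDHB, the other subunit, had 16187 and 15994 reads, a log2 fold change of -0.25 (-0.29 to -0.22). Both subunits were lower, LDHA by more. SLC16A3, the transporter MCT4 that exports lactate from glycolytic cells, had 1715 and 1294 reads, a log2 fold change of -0.64 (-0.75 to -0.54). CSNK1D overlaps SLC16A3 on the opposite strand with 1402 and 1719 reads, and since use of strand in the counting is not given in the sources used here, reads of the pair could be exchanged. SLC16A1, the more widely expressed MCT1, had 1988 and 2119 reads, a log2 fold change of -0.14. PDK1, a kinase that inhibits pyruvate dehydrogenase, had 305 and 506 reads, a log2 fold change of 0.49 (0.29 to 0.70), and PDK3 had 82 and 56 reads, a log2 fold change of -0.78 (-1.30 to -0.28). The kinases lay on opposite sides of 0, but with the GC and length trend subtracted PDK1, whose canonical transcript is long (14072 nt), had only 0.14 and PDK3 -0.77. PDHA1, the catalytic subunit that both act on, had 2256 and 2336 reads and a log2 fold change of -0.19.

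Summed over the 27 glycolytic genes, reads went from 181669 of all counted reads in Vector (1.32%) to 160630 (1.03%), a log2 fold change of the sum of -0.41. Without GAPDH and ENO1, which hold much of that sum, it was -0.44. With a trend on GC content and transcript length subtracted, an alternative added after seeing the data, 6 of the 10 lower members stayed past 1.5-fold, and ENO1, TPI1, SLC16A3 and TALDO1 did not, with log2 fold changes of -0.54, -0.56, -0.50 and -0.52. The 6 were all glycolytic, GPI, PGK1, PGAM1, ENO2, LDHA and PDK3. ENO2 (60 and 40 reads) and PDK3 (82 and 56 reads) had few reads. Their intervals before the subtraction, -1.44 to -0.22 and -1.30 to -0.28, reach inside 1.5-fold. The 6 genes are 23.1% of the 26 glycolytic genes and 14.3% of the 42 members. Under the same subtraction, 11.8% of all genes were lower by 1.5-fold. The glycolytic median was then -0.36, and 21 of the 26 genes were below 0, beside 53.2% of all genes.

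**Figure D3:**
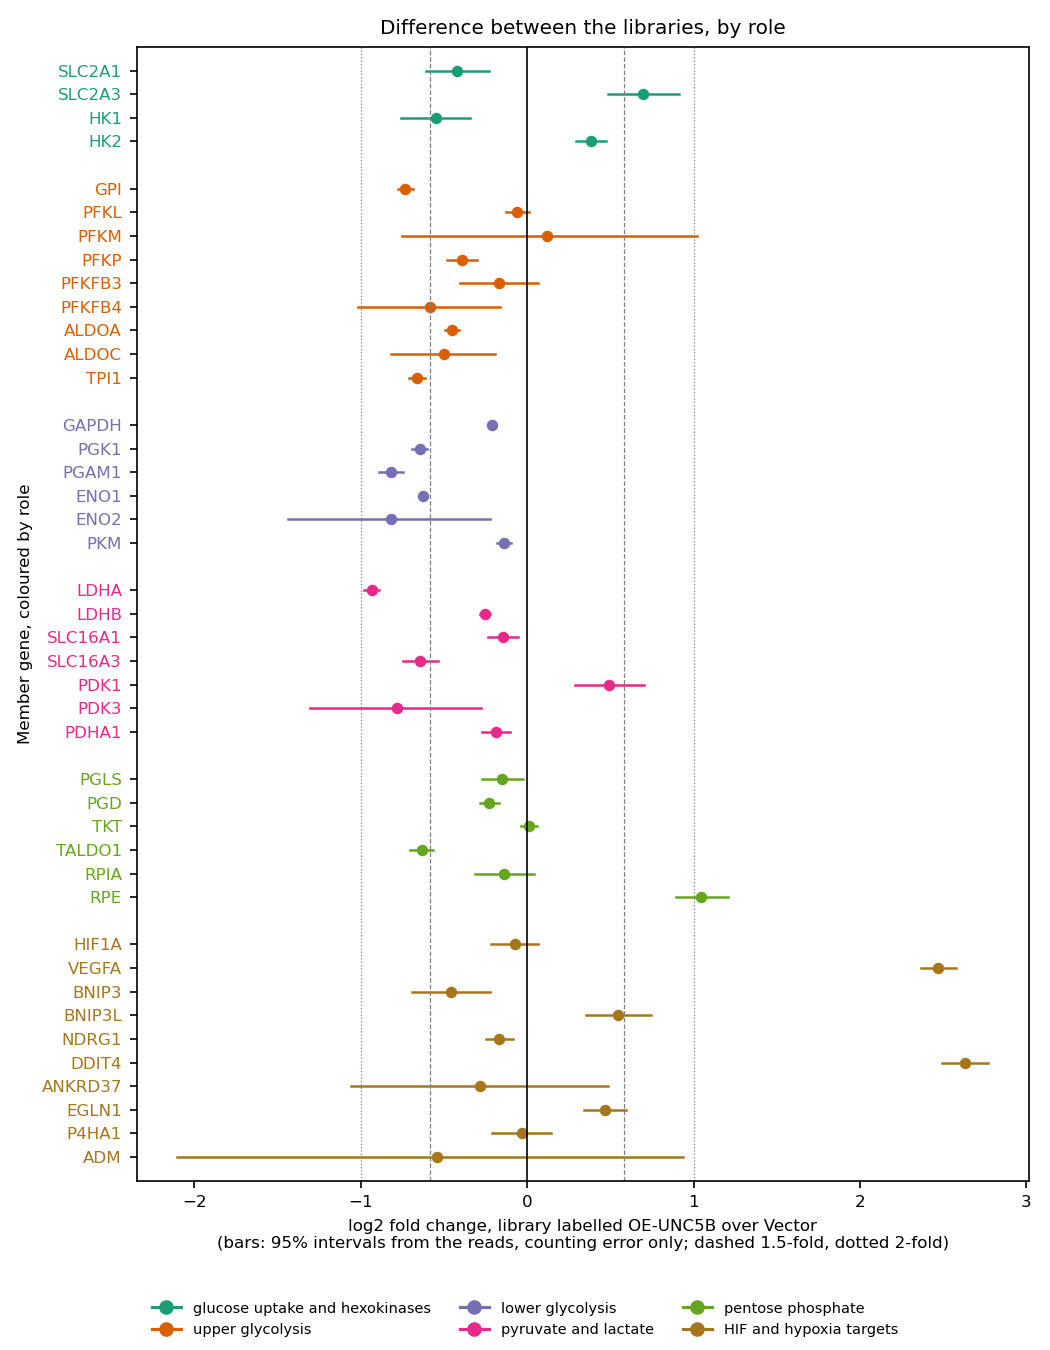
Log2 fold change of the library labelled OE-UNC5B over Vector (x axis) for the 42 compared members (y axis, coloured by role), with 95% intervals from the reads that cover counting error only. Dashed lines mark 1.5-fold and dotted lines 2-fold. All 6 genes of lower glycolysis lie below 0, and DDIT4, VEGFA and RPE lie beyond 2-fold higher.

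Several steps are shared by isozymes, and their balance can be read without any scaling between the libraries, as a ratio of reads within each library. The ratio of SLC2A1 to SLC2A3 reads went from 1.81 in Vector to 0.832, a change in the ratio of -1.12 on the log2 scale (exact conditional 95% interval -1.41 to -0.83). HK1 to HK2 went from 0.260 to 0.136, a change of -0.93 (-1.16 to -0.71). LDHA to LDHB went from 0.668 to 0.417, a change of -0.68 (-0.73 to -0.63). Each of these pairs tilted toward the second member, SLC2A3, HK2 or LDHB. SLC16A1 to SLC16A3 went from 1.16 to 1.64 (0.50, interval 0.36 to 0.64) and PDK1 to PDK3 from 3.72 to 9.04 (1.28, interval 0.73 to 1.84). These ratios do not depend on scaling between libraries, but a trend on GC content or length can still move them, as the value of PDK1 shows. PFKL to PFKP went from 1.52 to 1.91 (0.33, interval 0.22 to 0.45). For aldolase, enolase and PFKFB3 to PFKFB4, the interval of the change included 0.

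Levels of different genes were compared per length, as TMM-scaled CPM per kilobase of the canonical GENCODE 44 transcript. On this scale GAPDH had the highest level of the 42 genes in both libraries (2888 and 2492), followed by ENO1 (1709 and 1107) and LDHB (921 and 772). LDHA was at 357.7 in Vector, rank 6, and at 187.3, rank 7, in the other library. HK2 made up 71.0% and then 82.5% of the hexokinase level, and LDHA 28.0% and then 19.5% of that of lactate dehydrogenase. ENO1 held 99.9% of the enolase level in both libraries and ALDOA 98.0% and 98.1% of that of aldolase. The deposited FPKM values were not used for such comparisons, because the length they divide by exceeded the whole genomic span of the gene for 7 of the 42 members, GAPDH, TPI1, ALDOC, LDHA, VEGFA, DDIT4 and ADM. For GAPDH that length was 6912 nt, against a gene of 4448 nt and a canonical transcript of 1285 nt. The order of PFKL and PFKP depends on this choice, since FPKM gives PFKP 59.6% of the set in Vector and canonical lengths give it 42.0%. The same holds for SLC16A1 and SLC16A3 in Vector, where SLC16A1 has 68.8% by FPKM and 44.5% by canonical length. It also holds for SLC2A1 in the library labelled OE-UNC5B, with 56.0% by FPKM and 48.5% by canonical length, and for BNIP3 in both libraries, with 48.8% and 32.3% by FPKM and 68.1% and 51.6% by canonical length.

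**Figure D4:**
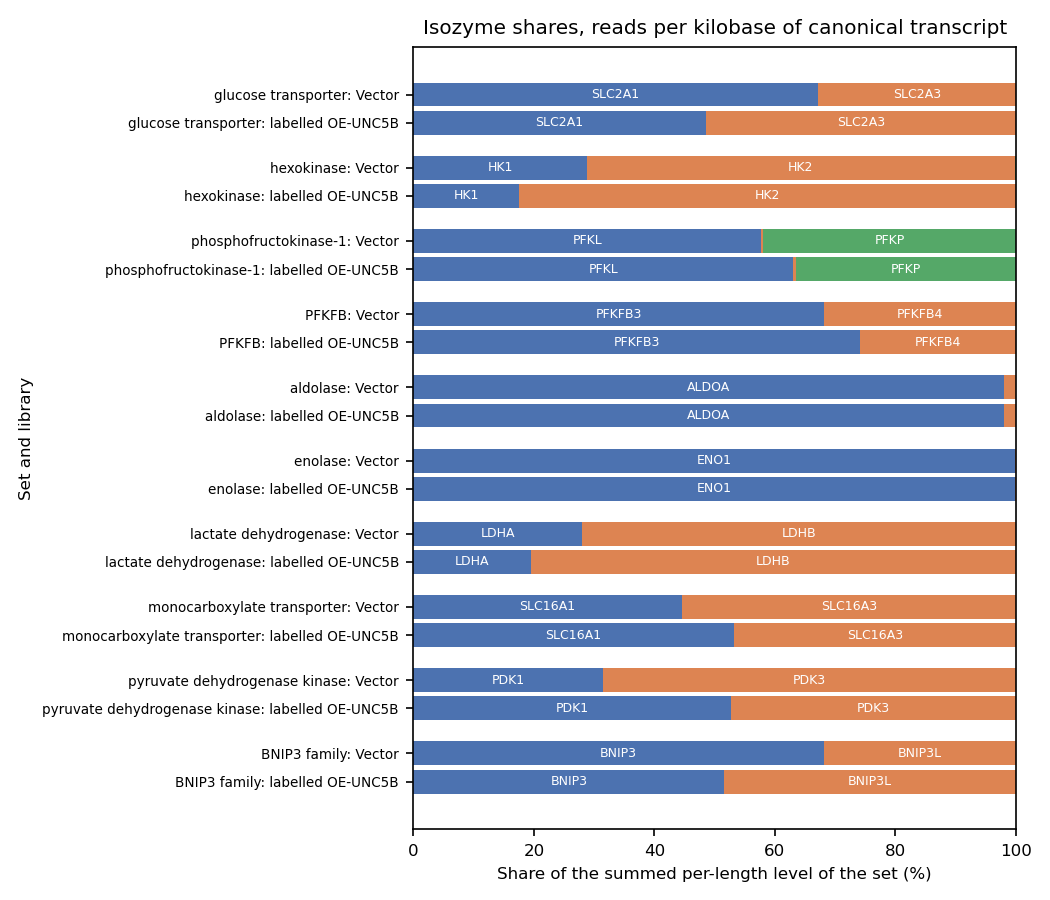
Share of each isozyme (x axis, %) in the summed per-length level of its set, for Vector and the library labelled OE-UNC5B (y axis), in reads per kilobase of canonical transcript. HK2 goes from 71.0% to 82.5% of the hexokinases and SLC2A3 from 32.9% to 51.5% of the 2 glucose transporters, whereas by deposited FPKM SLC2A1 keeps the larger share in both libraries (73.4% and 56.0%).

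The pentose phosphate genes had no common direction. RPE (ENSG00000197713, chromosome 2 from 210002565 to 210022259, plus strand) encodes ribulose-phosphate 3-epimerase, which links ribulose 5-phosphate to the sugar exchange of the non-oxidative branch. It had 470 and 1145 reads, 2.07-fold higher, a log2 fold change of 1.05 (0.89 to 1.21). Subtraction of the GC and length trend gave 0.89, and log2 FPKM with 1 added gave 0.91, both under the 2-fold threshold. KANSL1L, which overlaps RPE on the opposite strand, had 275 and 355 reads. TALDO1, transaldolase of the same branch, was the lower one, with 3904 and 2965 reads and a log2 fold change of -0.63 (-0.70 to -0.56). The other 4 enzymes stayed within 1.5-fold. TKT, transketolase, had 7132 and 8473 reads and a log2 fold change of 0.01 (-0.03 to 0.06), and RPIA, which makes ribose 5-phosphate, had 516 and 553 reads and a log2 fold change of -0.14 (-0.31 to 0.04). In the oxidative branch, PGD, which releases the second NADPH, had 4797 and 4830 reads and a log2 fold change of -0.23 (-0.28 to -0.17). PGLS, the lactonase before it, had 1049 and 1114 reads and a log2 fold change of -0.15, or 0.08 with the GC and length trend subtracted. The sum over the 6 genes was 17868 and 19080 reads, a log2 fold change of -0.14.

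In the hypoxia response, DDIT4 and VEGFA were several-fold higher, the other 8 compared genes stayed within 1.5-fold, and CA9 and EGLN3 had too few reads to compare. DDIT4 (ENSG00000168209, chromosome 10 from 72273920 to 72276036, plus strand) encodes an inhibitor of mTORC1 signalling. It had 481 and 3507 reads, 6.18-fold higher, a log2 fold change of 2.63 (2.49 to 2.77). VEGFA (ENSG00000112715, chromosome 6 from 43770184 to 43786487, plus strand) encodes the main angiogenic growth factor. It had 844 and 5503 reads, 5.53-fold higher, a log2 fold change of 2.47 (2.36 to 2.57). Both genes are known targets of HIF and also of ATF4, the transcription factor of the integrated stress response. HIF1A itself had 753 and 842 reads, a log2 fold change of -0.08 (-0.22 to 0.07), an RNA value that does not bear on protein stability.

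The remaining HIF targets of this group were spread around 0. Glycolytic genes, many of which HIF also induces, were sorted apart from it. BNIP3L, a mitophagy receptor, had 349 and 601 reads, a log2 fold change of 0.55 (0.35 to 0.74), and EGLN1, the oxygen-sensing prolyl hydroxylase, had 823 and 1341 reads, a log2 fold change of 0.47 (0.34 to 0.60). BNIP3, the related mitophagy receptor, had 333 and 286 reads, a log2 fold change of -0.46 (-0.69 to -0.22), or -0.34 with its pseudogenes, which held 39 and 61 reads. The pair BNIP3 and BNIP3L thus lay on opposite sides of 0, and the ratio of BNIP3 to BNIP3L reads went from 0.954 to 0.476. NDRG1, a stress-induced differentiation gene, had 2411 and 2530 reads and a log2 fold change of -0.17. P4HA1, a collagen prolyl hydroxylase, had 493 and 568 reads and a log2 fold change of -0.03 (-0.21 to 0.14). The intervals of P4HA1, ANKRD37 (31 and 30 reads) and ADM (10 and 8 reads) include 0, and CA9, a carbonic anhydrase, was under the floor in both libraries. Without VEGFA and DDIT4, the other 10 genes held 5205 and 6206 reads together, a log2 fold change of the sum of 0.02 (-0.04 to 0.07), against 0.98 for all 12.

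HIF binds the core letters ACGTG and, with another first base, the letters GCGTG, so both were searched on both strands in RefSeq promoters (GRCh38.p14, 250 bases before to 50 after a start). Of the 45 genes, 40 had an entry, and VEGFA, SLC2A3, SLC16A1, BNIP3L and NDRG1 had none. The letters were found at a start of 33 of the 40 genes (82.5%), against 52.4% of all 27305 genes with a promoter entry. Genes with several listed starts have more chances to hold them. The members include genes chosen as HIF targets, and the 27305 genes were not limited to expressed ones, so these shares are no test of HIF. The 32 compared genes with the letters ranged around a median log2 change of -0.34, from -0.93 to 2.63, and the 5 without them around -0.15, from -0.82 to 1.05. The promoters of 5 genes with a single listed start are shown because they hold both directions with and without the letters. DDIT4 (2.63) has 4 matches, BNIP3 (-0.46) has 6 and ENO1 (-0.63) has 2, while RPE (1.05) and TALDO1 (-0.63) have none. Each is written 5′ to 3′ on the strand of the gene, with both motifs and their reverse complements in capitals.
DDIT4 (chr10:72273674-72273973, plus strand): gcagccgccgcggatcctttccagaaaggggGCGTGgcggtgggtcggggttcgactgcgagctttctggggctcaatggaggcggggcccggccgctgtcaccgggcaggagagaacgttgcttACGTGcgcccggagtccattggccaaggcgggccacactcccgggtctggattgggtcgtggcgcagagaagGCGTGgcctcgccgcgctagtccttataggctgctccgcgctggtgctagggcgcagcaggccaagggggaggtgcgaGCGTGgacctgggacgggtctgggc
BNIP3 (chr10:131981874-131982173, minus strand): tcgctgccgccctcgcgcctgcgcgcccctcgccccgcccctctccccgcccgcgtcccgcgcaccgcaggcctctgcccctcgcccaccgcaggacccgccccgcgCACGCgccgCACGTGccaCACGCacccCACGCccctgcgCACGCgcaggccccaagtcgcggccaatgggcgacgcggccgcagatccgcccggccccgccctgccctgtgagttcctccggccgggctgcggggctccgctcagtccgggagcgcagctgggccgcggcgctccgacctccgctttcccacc
ENO1 (chr1:8878637-8878936, minus strand): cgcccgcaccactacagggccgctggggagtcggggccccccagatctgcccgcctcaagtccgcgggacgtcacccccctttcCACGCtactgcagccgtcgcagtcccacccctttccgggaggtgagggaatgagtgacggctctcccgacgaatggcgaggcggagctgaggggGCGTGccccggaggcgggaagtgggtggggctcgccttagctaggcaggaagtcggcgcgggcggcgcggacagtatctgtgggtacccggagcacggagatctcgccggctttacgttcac
RPE (chr2:210002388-210002687, plus strand): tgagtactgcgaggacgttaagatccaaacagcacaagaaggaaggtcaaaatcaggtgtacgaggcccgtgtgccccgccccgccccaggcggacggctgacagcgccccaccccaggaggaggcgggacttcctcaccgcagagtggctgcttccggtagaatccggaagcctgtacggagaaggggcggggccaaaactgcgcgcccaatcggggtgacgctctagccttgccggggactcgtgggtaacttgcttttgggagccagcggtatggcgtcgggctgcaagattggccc
TALDO1 (chr11:747214-747513, plus strand): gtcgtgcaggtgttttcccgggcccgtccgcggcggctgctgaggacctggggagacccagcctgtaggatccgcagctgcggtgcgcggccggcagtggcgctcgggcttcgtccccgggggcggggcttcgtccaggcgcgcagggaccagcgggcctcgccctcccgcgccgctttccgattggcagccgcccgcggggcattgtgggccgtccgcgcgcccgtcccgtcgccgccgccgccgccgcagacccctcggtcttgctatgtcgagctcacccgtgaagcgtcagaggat
In DDIT4 the matches begin at positions -219, -125, -53 and 26, counted from the start as 1 with no 0. In BNIP3 they begin between -143 and -104, and a pair overlaps on opposite strands. A match is a description of letters in this window, and DDIT4, the member with the largest increase, and members below 0 both carry them.

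The other genes of the same pathways were read from lists. Of 17 compared genes of glycolysis and gluconeogenesis outside the members, 13 had values below 0, with a median of -0.38, and 5 were lower (29.4%) and 1 higher (5.88%) by 1.5-fold, where all genes gave 12.5% lower, 12.9% higher and 50.6% below 0. Of these 5, SLC2A4 had 10 and 1 reads and PFKFB2 10 and 7 reads, both near the filter, and PGAM4 is a near-identical copy of PGAM1. Of 14 genes of pyruvate oxidation and lactate transport, 2 were higher and 2 lower, with a median of 0.05. PDPR, the regulatory subunit of pyruvate dehydrogenase phosphatase, had 423 and 1303 reads, a log2 fold change of 1.39 (1.23 to 1.55). The 8 other pentose phosphate and ribose phosphate genes all stayed within 1.5-fold, with a median of -0.23. Of 9 genes of HIF subunits and oxygen sensing, 1 was lower and 0 were higher. Of 21 other hypoxia-induced genes, 2 were higher and 4 lower by 1.5-fold, with a median of -0.03, so that these targets too had no common direction. MXI1, an antagonist of MYC, had 375 and 1090 reads, 2.47-fold higher (log2 interval 1.13 to 1.48). A list of 4 genes around the glucose-sensing factor MondoA was read too. By 1.5-fold 3 of them were higher and by 2-fold 2, where all genes gave 12.9% and 5.15%. The list was chosen with earlier results of these data known, and MondoA activity was not tested. TXNIP, a MondoA target that limits glucose uptake, had 1345 and 5255 reads, a log2 fold change of 1.73 (1.64 to 1.82). ARRDC4, the other target, had 145 and 528 reads, a log2 fold change of 1.62 (1.36 to 1.90). MLX, the partner of MondoA, had a log2 fold change of 0.71 and MLXIP, which encodes MondoA, of -0.03.

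**Figure D5:**
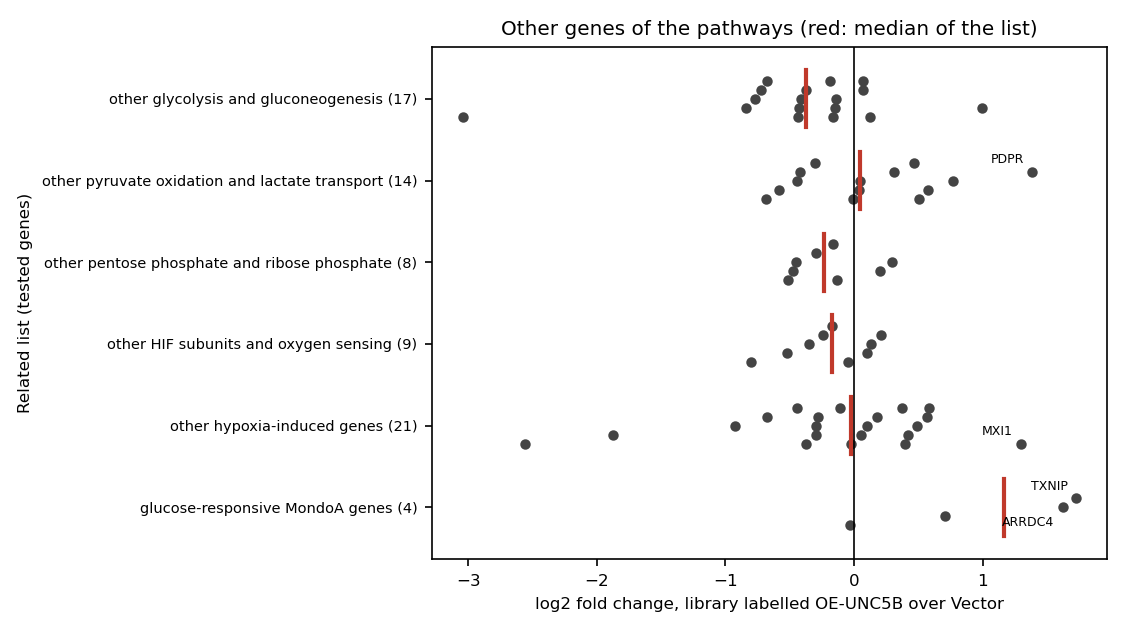
Log2 fold change of the library labelled OE-UNC5B over Vector (x axis) for compared genes of 6 related lists (y axis, number of genes in brackets), with the median of each list as a red bar and genes past 2-fold with at least 50 reads named. The median of the 17 other genes of glycolysis and gluconeogenesis is -0.38, and TXNIP and ARRDC4 lie at 1.73 and 1.62.

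All 10 markers of the myeloid line had reads in both libraries. LYZ had 51742 and 23700 reads and MPO 3363 and 1553 reads, both lower by over 2-fold. PTPRC had 1592 and 3102 reads and MEIS1 247 and 542 reads, both higher by over 1.5-fold. The other 6 stayed within 1.5-fold, and 6 of the 10 were above 0. Of the defining markers of other cells, KDR, CDH5, DCN, POSTN, KRT8, PAX2 and HBA1 had 0 reads in both libraries. Other genes of those lists had a few reads, namely COL1A1 (21 and 9), COL1A2 (8 and 2), HBB (14 and 8), KRT18 (5 and 2), LUM (2 and 0) and VWF (1 and 2). PECAM1, listed as endothelial and also expressed by leukocytes, had 1626 and 1471 reads. The part of the myeloid markers in the glycolytic values was not tested.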

How the data were processed

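Molm13 RNA was measured in 1 Vector library and in the library labelled OE-UNC5B, both made with the VAHTS Universal V6 kit and mapped to GRCh38. For each gene the authors deposited counts (whole reads, not normalized) and FPKM. The submitters' processing notes name HISAT2 2.0.4 and StringTie 1.3.0, with no role given. The annotation release, the counting tool and the use of strand are not given in the sources used here.

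TMM factors came from edgeR 4.0.16 in R 4.3.3. A gene needed 10 reads over the libraries together to be compared, and 0.5 reads were added. Counting intervals are Clopper-Pearson at 95% (scipy 1.17.1) and cover counting error only. The planned design has 1 library per group, so no test of the conditions was run, and genes were counted past 1.5-fold and 2-fold. Every member was accounted for. Values were given for members past 1.5-fold, isozymes, GAPDH and HIF1A, and for listed related genes past 2-fold with at least 50 reads. Other members, and related or marker genes outside this rule, were described after their values were seen. The members and lists were chosen with earlier results of these data known. Lengths and GC content came from GENCODE 44, which covered 98.8% of compared genes and all 45 members. Pseudogenes were matched by symbol. The median depth of compared genes was 269.5 reads in Vector and 316 in the other library. The fold change and interval were tried on simulated counts that held counting error only and were scaled by library totals. TMM scaling and the trend subtraction were not tried in this way. The settings varied were scaling (library totals or size factors from DESeq2 1.42.0), log2 FPKM plus 0.1 or 1 (genes reaching an FPKM of 1), 2 reads added, no filter, a minimum of 50 reads, reads of pseudogenes and near-identical copies added, and, added after seeing the data, a minimum of 1000 reads and subtraction of a trend (polynomial of degree 3) on GC content and log length.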

Additional observations from a re-analysis of the deposited data

How the results depend on the processing

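No paired analysis was possible because each group is a single library, which also leaves no replicate to omit. The number of members lower by 1.5-fold was 10. It was 5 with FPKM and 1 added, where a minimum FPKM removes 4 of the 42 members, and 6 after subtraction of the GC and length trend, all of them among the 10. These are 13.2% of members beside 4.85% of all genes, and 14.3% beside 11.8%. Without a filter, 2 members were lower by 2-fold, HK3 and CA9, both with at most 3 reads. The glycolytic median was -0.31 with FPKM and 1 added, -0.38 with FPKM and 0.1 added and -0.39 with library totals; the FPKM settings change scaling, filter and added value together, and their parts were not tested. The pentose phosphate median was -0.014 with the trend subtracted, and the cause was not tested. The hypoxia median was 0.26 and 0.24 with FPKM (0.1 and 1 added) and 0.22 with at least 1000 reads, from fewer genes. The number of members higher by 1.5-fold was between 3 and 5 under every alternative, and SLC2A3 fell short of 1.5-fold with FPKM and 1 added (0.49). ENO1 and TALDO1 fell short with FPKM and either value added, where the minimum removes ENO2, and PDK3 and SLC16A3 with 1 added. With library totals, ENO1 fell short of 1.5-fold and BNIP3L passed it. RPE fell short of 2-fold with FPKM and 1 added (0.91) and with the trend subtracted (0.89). No member past 1.5-fold changed sign. Of the others, PFKL (0.05) and PGLS (0.08) turned above 0 with the trend subtracted, and P4HA1 with library totals and both FPKM settings (0.01 in each). Depth limits PFKM, ANKRD37 and ADM, whose intervals span 0.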
